A study of Mus musculus with 2 samples.

Results

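Cxcl10, Ccl5, Cxcl9 and Cxcl16, 4 of the 31053 genes in the deposited tables, were followed through retinal single-cell RNA sequencing libraries as genes of chemokines that attract T cells. They were chosen by name, with their levels in these libraries already known, so every value here describes the 2 libraries and supports no test. One library carries the label of an Igfbpl1 knockout and the other that of wildtype; the gene's product is related to proteins that bind insulin-like growth factors. Both came from mice on the C57BL/6 background that had been perfused, and the retinal cells were stained for CD45, a surface protein of leukocytes, and sorted by flow cytometry before loading on a 10x 3′ kit. Per the design text, the knockout arm had 10 mice and the wildtype arm 10 of matched sex, all between 8 and 10 months old, and further arms it names are not analysed here. How many mice went into each library, which allele was altered and which mouse a cell came from are not given in the sources used here. With 1 library per group, cells cannot stand in for mice, and no difference below was tested.

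Chemokines are small secreted proteins that guide leukocytes along gradients. CXCL9 and CXCL10 act on the receptor CXCR3, which activated T cells and NK cells carry, and both genes are known as targets of interferon signalling. CCL5 acts on receptors that include CCR1 and CCR3 and is made by activated macrophages as well as by effector T cells and NK cells. CXCL16 is made as a membrane-anchored protein that the proteases ADAM10 and ADAM17 release, and its receptor is CXCR6.

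In GRCm38 (GENCODE M21 annotation), Cxcl10 lies at chr5:92346638-92348889 and Cxcl9 at chr5:92321347-92328079, both on the minus strand and 18558 bases apart. Ccl5 lies at chr11:83525778-83530518 and Cxcl16 at chr11:70453983-70459984, also on the minus strand. Cxcl10 overlaps Art3 and Cxcl16 overlaps Zmynd15, in each case on the opposite strand, and whether counting used strand is not given in the sources used here. The promoter windows of the neighbouring pair are shown because Cxcl10 and Cxcl9 are both counted among interferon targets, yet had very different levels in these cells. Each runs from 250 bases before to 50 bases after the start of the gene (RefSeq, GRCm38.p6, 5′ to 3′ on the minus strand, chr5:92348840-92349139 for Cxcl10 and chr5:92328030-92328329 for Cxcl9), with motif matches in capitals.
Cxcl10: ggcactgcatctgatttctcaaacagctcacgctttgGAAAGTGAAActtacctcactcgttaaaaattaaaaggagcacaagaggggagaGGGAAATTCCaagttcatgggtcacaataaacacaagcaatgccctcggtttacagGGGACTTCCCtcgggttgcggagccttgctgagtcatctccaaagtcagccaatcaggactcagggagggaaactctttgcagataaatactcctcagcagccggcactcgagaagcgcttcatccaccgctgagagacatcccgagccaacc
Cxcl9: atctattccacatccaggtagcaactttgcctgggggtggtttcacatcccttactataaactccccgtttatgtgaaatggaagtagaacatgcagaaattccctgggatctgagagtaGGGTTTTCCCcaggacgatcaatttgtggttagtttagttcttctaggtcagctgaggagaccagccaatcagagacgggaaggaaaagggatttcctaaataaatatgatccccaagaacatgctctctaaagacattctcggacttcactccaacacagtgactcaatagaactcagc
Both strands were searched for 3 motifs. The interferon-stimulated response element was searched as GAAA, any 2 bases and GAAA again, the gamma-activated site as TTC, any 3 bases and GAA, and the kB site of NF-kB factors as GGGA, any 4 bases and CC. Cxcl10 held 1 match to the first, starting 213 bases before the gene, and kB matches starting 159 and 103 bases before it, the nearer of which read as a match on both strands. Cxcl9 held 1 kB match, on the opposite strand, starting 130 bases before the gene. No match to the gamma-activated site was in either window, and Cxcl9 had none to the first motif. Across 32817 promoter windows of the same length, 3.43% held the first motif, 8.29% the second and 20.7% the third. A match is a description of letters. A window without a match can still hold sites spelled otherwise, which these strict patterns do not find. The promoter table used here holds windows for 2 of the 4 genes; Ccl5 and Cxcl16 are named only.

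The library labelled knockout held 7945713 unique molecular identifiers (UMIs) in 1785 barcodes and the library labelled wildtype 11020717 in 2735, and 1761 and 2692 cells were kept, with 1 barcode shared by both tables. Igfbpl1 itself goes against the labels, with 29 counts in the library labelled knockout and 2 in that labelled wildtype. The labels do not say which part of the gene was deleted, so each library goes by its label, and a direction is one between labels and not between genotypes. Cells were classed by how many markers of each of 11 lists had at least 1 UMI. Under the rule set for this work, which takes the list with the highest share detected, 1575 and 2491 cells were microglia-like, of 10 microglia markers a median of 8 in each. That rule had a fault that touches Ccl5. Cells with many T or NK cell markers stood clearly apart, with at least 6 of 13 such markers in 20 cells of the library labelled knockout and at least 7 in 6 cells of that labelled wildtype, while no other cell held more than 2. Of these, 7 and 4 also held enough microglia markers to be classed microglia-like. Likewise 28 of the 31 and 38 of the 42 cells with at least 3 of 8 border macrophage markers were classed microglia-like. A second rule, chosen after those classes had been seen, gave any other list that reached 3 markers priority over microglia. Called lineage-first here, it left 1537 and 2441 microglia-like, 31 and 41 border macrophage-like, 38 and 12 monocyte-like, 20 and 6 T/NK-like and 38 and 49 Müller glia- or astrocyte-like cells. All 31 and 41 border macrophage-like cells also held 3 or more microglia markers, at a median of 7 of 10 in either library. Of them, 25 and 34 held exactly 3 border macrophage markers, so this class is not clearly apart from microglia-like cells. Values are from the lineage-first rule unless the highest-share rule is named. Levels are counts scaled to 1000000 UMIs of the class (CPM), and all intervals are exact 95% intervals that cover counting error only. Because counts of these genes sit in few cells, such intervals are narrower than the spread that further libraries would show.

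Cxcl10 stood at a lower level in the microglia-like cells of the library labelled knockout. It had 564 counts there, or 82.2 CPM (75.5 to 89.2), against 2858 counts or 286 CPM (276 to 297) in the library labelled wildtype. The ratio of knockout to wildtype label was 0.287 (0.262 to 0.314), and the highest-share rule gave 0.283. Fewer cells held it, while the median count in a positive cell was 3 in both libraries. A Cxcl10 UMI was found in 103 cells, 6.70%, against 337 cells, 13.8%, with a mean of 5.48 against 8.48 counts per positive cell. After every cell was thinned to 1000 UMIs, the shares were 2.84% and 8.05%. In rod- and bipolar-like cells, which should lack these chemokines, 0 of 20 and 0 of 29 cells held a Cxcl10 UMI at median depths of 1713 and 2010 UMIs, against 4297 and 3944 in microglia-like cells. Those zeros have exact upper limits of 16.8% and 11.9%, so this background is loosely bounded. Without the 1% of microglia-like cells with most Cxcl10 in each library, the log2 ratio under the highest-share rule was -2.10, against -1.82 with them.

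Microglia-like cells held most Cxcl10 of either library, 89.4% of its counts in that labelled knockout and 96.2% in that labelled wildtype. They also made up 87.3% and 90.7% of kept cells, so these shares are not far from the size of the class. T/NK-like cells had none in either. Border macrophage-like cells had 67.3 CPM (13 counts, 5 of 31 cells) against 306 CPM (70 counts, 6 of 41 cells), and a single cell held 60 of the 70. Without the top cell of each library the border macrophage-like levels were 37.6 and 44.8 CPM. Monocyte-like cells had 84.9 CPM in the library labelled knockout, from 21 counts of which 20 were in 1 cell, and none in that labelled wildtype. Müller glia- or astrocyte-like cells had 1 count in 38 cells against 25 counts in 3 of 49 cells. Among classes of the library labelled knockout, the intervals of microglia-, border macrophage- and monocyte-like cells overlap, and so do those of microglia- and border macrophage-like cells in the library labelled wildtype.

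By the lineage-first rule Ccl5 had opposite differences in 2 cell classes. The choice of class rule changed the size of its ratio in microglia-like cells and the direction in T/NK-like cells. Microglia-like cells had 344 counts or 50.1 CPM (45.0 to 55.7) in the library labelled knockout, against 1676 counts or 168 CPM (160 to 176) in that labelled wildtype, a ratio of 0.298 (0.265 to 0.335). Under the highest-share rule the 7 and 4 T/NK-marker cells stay among the microglia-like cells and the ratio was 0.855 (0.794 to 0.921), from 158 and 185 CPM. Those 7 cells alone held 788 of 1132 counts, and the 4 cells 228 of 1906. Leaving them out and changing nothing else gave 48.6 and 164 CPM, a ratio of 0.297. A Ccl5 UMI was found in 5.14% of microglia-like cells of the library labelled knockout and in 9.05% of those labelled wildtype, or 2.65% and 4.88% after thinning. No rod- or bipolar-like cell held one.

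T/NK-like cells carried far more Ccl5 per cell. The 20 cells of the library labelled knockout held 0 to 424 counts, with a median of 79, and the 6 cells of that labelled wildtype 6 to 210, with a median of 47.5, so the ranges overlap. The top cell held 17.9% of these counts in the library labelled knockout and 42.9% in that labelled wildtype. Summed, the levels were 17691 CPM against 8802 CPM, a ratio of 2.01 (1.82 to 2.22), or 2.86 without those top cells. The highest-share rule, which leaves 13 and 2 such cells, turned the direction, with 30300 and 39219 CPM and a ratio of 0.773 (0.677 to 0.884). Of the lineage-first cells, 9 and 2 had fewer than 3 microglia markers, and their Ccl5 stood at 29985 and 39219 CPM at median depths of 3816 and 3327.5 UMIs. The other 11 and 4 held 3 or more and had 12717 and 4663 CPM at 8575 and 12041.5 UMIs. Cells that hold both sets of markers thus had a lower Ccl5 level in either library and were deeper, and the part of doublets in this was not tested.

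Which class dominated the Ccl5 of a library also differed. T/NK-like cells held 82.9% of all Ccl5 counts in the library labelled knockout and 22.3% in that labelled wildtype, and microglia-like cells 12.05% and 76.5%. Over all kept cells the library labelled knockout had more Ccl5, 361 CPM (348 to 374) against 199.97 CPM (192 to 209), a ratio of 1.804. Leaving out the 1% of cells with most Ccl5, 18 and 27 cells, turned that direction, to a log2 ratio of -0.66 from 0.85. T/NK-like cells were 1.14% (0.695 to 1.75) and 0.223% (0.0818 to 0.485) of kept cells. Border macrophage-like cells had 0 and 1 Ccl5 counts and monocyte-like cells 2 and 0. One further cell of the library labelled knockout, which both marker rules left unassigned and clustering placed with the microglia-like cells, held 126 Ccl5, 33 Cxcl16 and 20 Cxcl10 counts among 14338 UMIs, with 1 microglia marker and no T/NK marker.

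Cxcl9 was near the limit of detection. A single microglia-like cell of the library labelled knockout held all 6 counts, and 8 cells of the library labelled wildtype held 1 to 4 counts each, 20 in all. The ratio was 0.436 with an interval of 0.143 to 1.13, so no difference was detectable at this depth. Of the 8 cells labelled wildtype, 7 also held Ccl5, 4 held Cxcl10 and 4 held an Ifit UMI, and the cell labelled knockout held 4 Ccl5 counts and no Cxcl10.

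Cxcl16 was spread over many cells at low counts and, over microglia-like cells as a whole, hardly differed between the libraries. Its level in microglia-like cells was 106 CPM (98.6 to 114) against 107 CPM (101 to 114), a ratio of 0.992 (0.902 to 1.09), and the highest-share rule gave 1.02. UMIs were found in 27.2% and 29.2% of microglia-like cells, or 7.74% and 8.01% after thinning. Border macrophage-like cells, at a median of 7 microglia markers, had more, 378 CPM (296 to 475) against 292 CPM (227 to 371). UMIs were in 71.0% and 73.2% of them. The ratio between labels there, 1.29, had an interval of 0.915 to 1.83. Müller glia- or astrocyte-like cells had 152 CPM (103 to 216) and 178 CPM (132 to 237), in 52.6% and 51.0% of cells at a median of 0 microglia markers, although after thinning the shares were 9.09% and 18.8%. Rod- and bipolar-like cells held it in 0 of 20 and 3 of 29. Monocyte-like cells had 6 counts in 2 of 38 cells and 0 counts in 12 cells. The order from border macrophage-like to Müller glia- or astrocyte-like to microglia-like cells was the same in both libraries, but the intervals of the last pair overlap in the library labelled knockout and those of the first pair in that labelled wildtype.

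**Figure D1:**
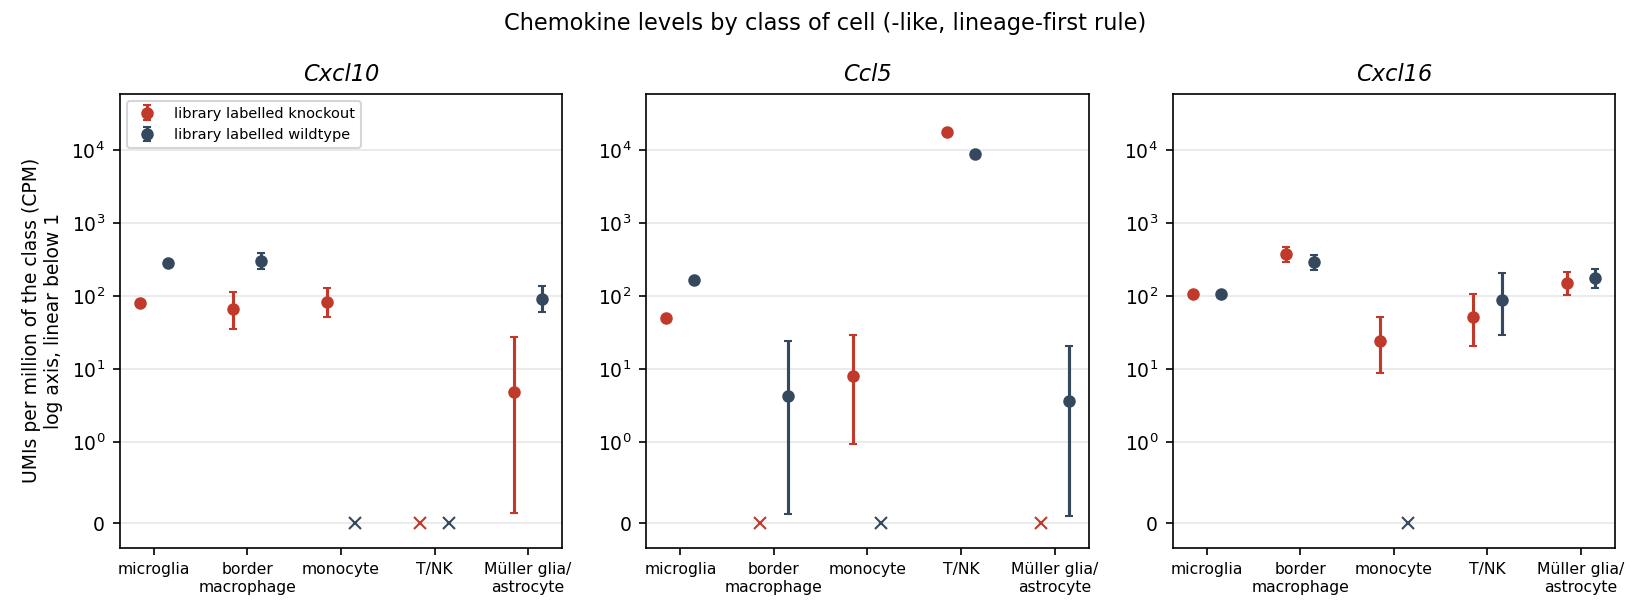
Level of Cxcl10, Ccl5 and Cxcl16 (CPM, log axis, linear below 1) in 5 classes of cell by the lineage-first rule, with the library labelled knockout left of that labelled wildtype; bars are exact 95% Poisson intervals and crosses mark 0 counts. Cxcl10 in microglia-like cells lies at 82.2 and 286 CPM, Ccl5 is highest in T/NK-like cells (17691 and 8802 CPM), and Cxcl16 is highest in border macrophage-like cells (378 and 292 CPM).

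Cxcl16 followed border macrophage markers even below the number that set the class. Grouping all kept cells other than T/NK-marker cells by how many of the 8 markers they held, its level in the library labelled knockout was 83.8 CPM with none, 300 CPM with 1, 432 CPM with 2 and 378 CPM with 3 or more. The library labelled wildtype gave 99.7, 221, 344 and 282 CPM in the same order of marker number. Without the top cell of each library, the ratio of knockout to wildtype label was 0.813 (0.731 to 0.904) in cells with no marker. With 1, 2 and 3 or more markers it was 1.27, 1.19 and 1.37, each with an interval that includes 1. In both libraries cells with 1 marker lay above those with none, and their intervals do not overlap. Across microglia-like cells the gene most like Cxcl16 was Ms4a7, itself a border macrophage marker, with a correlation of 0.245 in the library labelled knockout and 0.2003 in that labelled wildtype. By this rule no other of 10262 genes reached 0.2 in both libraries for any of the 4 genes. By the highest-share rule Ms4a7 had 0.298 and 0.235, and Cybb, a phagocyte oxidase gene, 0.250 and 0.217 with Cxcl16. These correlations across sparse single cells are weak. Microglia-like cells with 1 or 2 of the phagocyte genes Spp1, Gpnmb, Fabp5 and Lgals3, a set chosen after values were seen, had 284 CPM (73 cells) and 233 CPM (87 cells) of Cxcl16. Those with none had 87.8 CPM and 99.2 CPM. Ccl5 in cells with 1 or 2 of these genes was 193 CPM against 1209 CPM, but single cells held 68 of 95 and 160 of 561 counts, and without them the levels were 55.1 and 880.2 CPM. In cells with 3 or 4 it had 11 counts (15 cells) against 0 counts (10 cells).

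**Figure D2:**
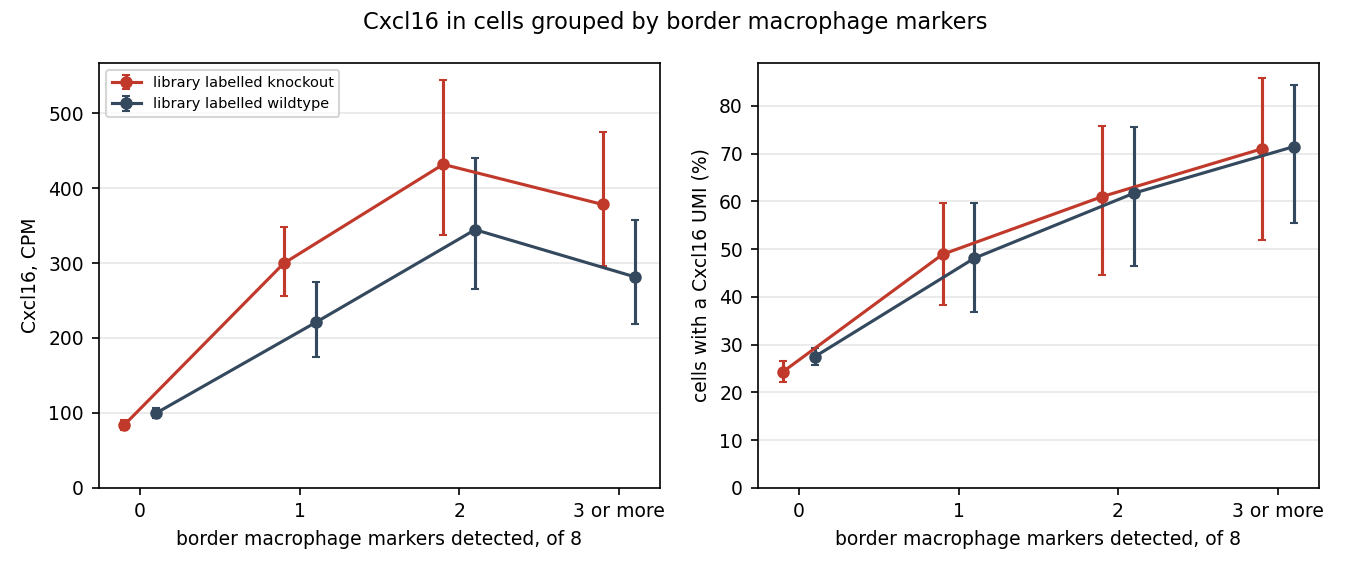
Cxcl16 level (CPM, left) and share of cells with a Cxcl16 UMI (percent, right) against the number of border macrophage markers detected, of 8, for the library labelled knockout and that labelled wildtype; bars are exact 95% intervals of counting error. Cells with at least 1 marker lie above cells with none in both libraries (300 against 83.8 CPM labelled knockout, 221 against 99.7 CPM labelled wildtype).

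Cxcl10 and Ccl5 were concentrated in few cells, and Cxcl16 was not. The top 1% of microglia-like cells held 57.8% of Cxcl10 counts in the library labelled knockout (16 cells) and 47.0% in that labelled wildtype (25 cells). For Ccl5 these shares were 69.8% and 60.7%, and for Cxcl16 20.6% and 14.8%. Put otherwise, 50% of Cxcl10 counts sat in 13 cells against 29, 50% of Ccl5 counts in 7 against 16, and 50% of Cxcl16 counts in 97 against 182. The strongest Cxcl10 cell held 55 counts in the library labelled knockout and 239 in that labelled wildtype. Cells with 10 or more Cxcl10 counts numbered 16, or 1.04%, against 84, or 3.44%, while cells with 1 to 9 made up 5.66% and 10.4%. Both strong and weak cells took smaller shares under the knockout label. Ccl5 gave 9 cells with 10 or more counts, 0.586%, against 36, 1.48%.

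**Figure D3:**
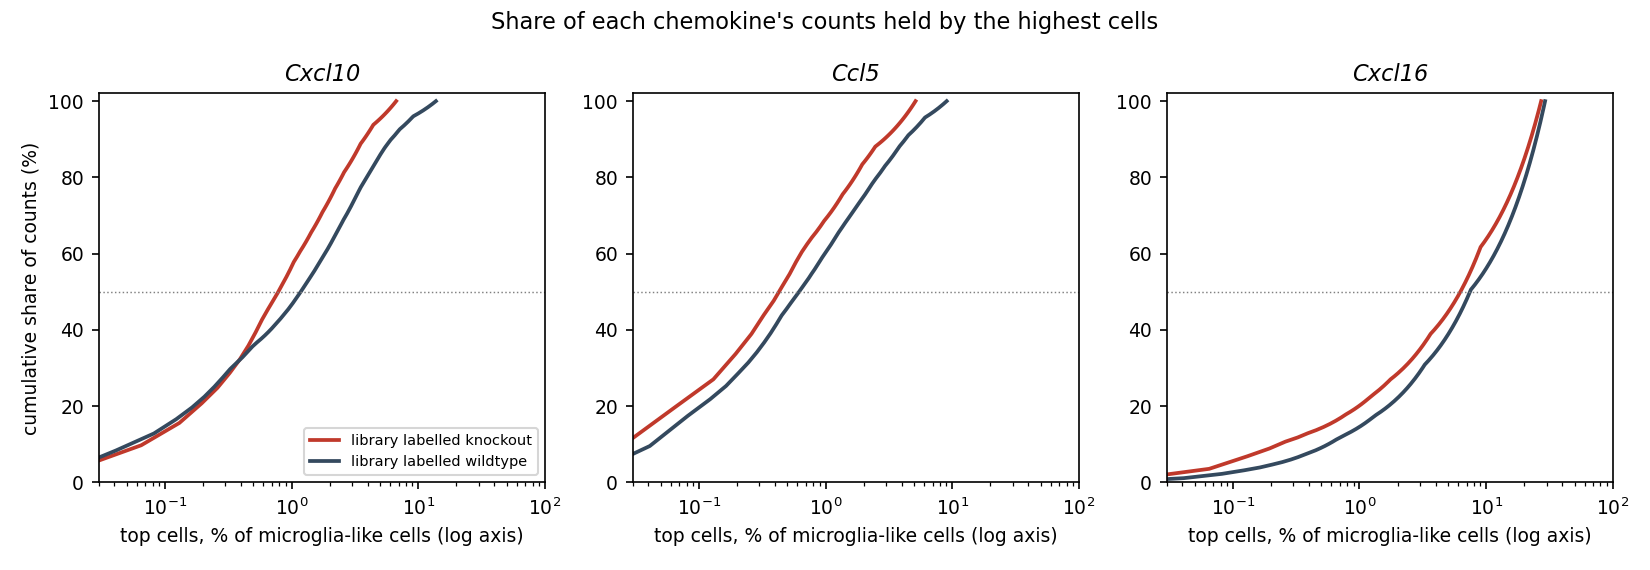
Cumulative share of the counts of Cxcl10, Ccl5 and Cxcl16 (percent) against the top cells as a percentage of all microglia-like cells (log axis), for the library labelled knockout and that labelled wildtype, lineage-first rule; the dotted line marks 50%. The top 1% of cells held 57.8% and 47.0% of Cxcl10 counts, against 20.6% and 14.8% of Cxcl16 counts.

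Most cells strong in Cxcl10 held few Ifit UMIs in either library. Ifit genes encode antiviral proteins that interferons induce strongly, and 5 of them were summed here, including Ifit3 and its near-identical copy Ifit3b, between which reads can be split. Of microglia-like cells with 10 or more Cxcl10 counts, 2 of 16 held 5 or more Ifit UMIs and 10 held none in the library labelled knockout, against 23 and 48 of 84 in that labelled wildtype. The 10 kept cells with most Cxcl10, at 20 to 55 counts, held 5 or more Ifit UMIs in 1 case in the library labelled knockout, against all 10, at 46 to 239 counts, in that labelled wildtype. Those ranges of counts hardly meet, so the top cells are not matched in level. The strongest cell labelled wildtype had 99 Ifit UMIs beside its 239 Cxcl10 counts, and the strongest labelled knockout 34 beside 55. The next cell labelled knockout held 33 Cxcl10 counts and no Ifit UMI. Few cells of the library labelled knockout reached high Ifit counts at all, 5 with 15 or more Ifit UMIs among 1537 microglia-like cells, against 47 among 2441.

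Microglia-like cells were then grouped by Ifit UMIs. The library labelled knockout had 1184 cells with 0, 187 with 1, 109 with 2 to 4 and 57 with 5 or more, and that labelled wildtype 1981, 260, 100 and 100. Along these groups the Cxcl10 level was 66.1, 49.97, 178 and 260 CPM in the library labelled knockout, and 161, 169, 294 and 2274 CPM in that labelled wildtype. A lower level under the knockout label thus stood in every Ifit group, with ratios of 0.41, 0.295, 0.605 and 0.114 in that order. One cell held 55 of the 78 counts of the library labelled knockout in the last group, and without the top cell of each library that group stood at 78.5 and 1868 CPM, the one before it at 132 and 258 CPM. In cells with no Ifit UMI it was 0.41 (0.362 to 0.463). When the groups were weighted equally for both libraries, the ratio was 0.294, against 0.287 without weighting. The last group has no upper limit and its Ifit medians were 7 and 13.5, so this weighting does not hold the Ifit level equal. Among cells with 5 to 14 Ifit UMIs, whose Ifit medians were 6.5 and 7, Cxcl10 stood at 83.8 CPM (52 cells) against 355 CPM (53 cells). With 15 or more, 1 of 5 cells held Cxcl10 in the library labelled knockout against 29 of 47, and those 47 cells held 40.7% of all microglia-like Cxcl10 counts of the library labelled wildtype.

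Ccl5 was at a lower level under the knockout label in each Ifit group, but single cells set much of its course along them. Its levels were 52.8, 55.1, 39.6 and 10.0 CPM in the library labelled knockout, the last from 3 counts, and 119, 261, 422 and 427 CPM in that labelled wildtype. One cell held 160 of the 208 counts of the library labelled wildtype in the group with 2 to 4 Ifit UMIs, and without the top cell of each library that group stood at 10.1 and 99.1 CPM. Within the last group, cells labelled wildtype with 5 to 14 Ifit UMIs had 71.04 CPM, below the cells with none, and those with 15 or more 792 CPM. No steady course with Ifit UMIs was thus seen. The ratios along the groups were 0.445, 0.211, 0.0938 and 0.0234, or 0.386, 0.196, 0.102 and 0.0229 without the top cells, each with an interval below 1. Cxcl16 was at 104, 116, 87.4 and 140 CPM against 98.9, 124, 110 and 180 CPM. In the library labelled wildtype its level with 5 or more Ifit UMIs (146 to 219 CPM) lay above that with none (92.0 to 106 CPM), while in that labelled knockout the intervals of these groups overlap, at 101 to 189 and 95.7 to 114 CPM.

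**Figure D4:**
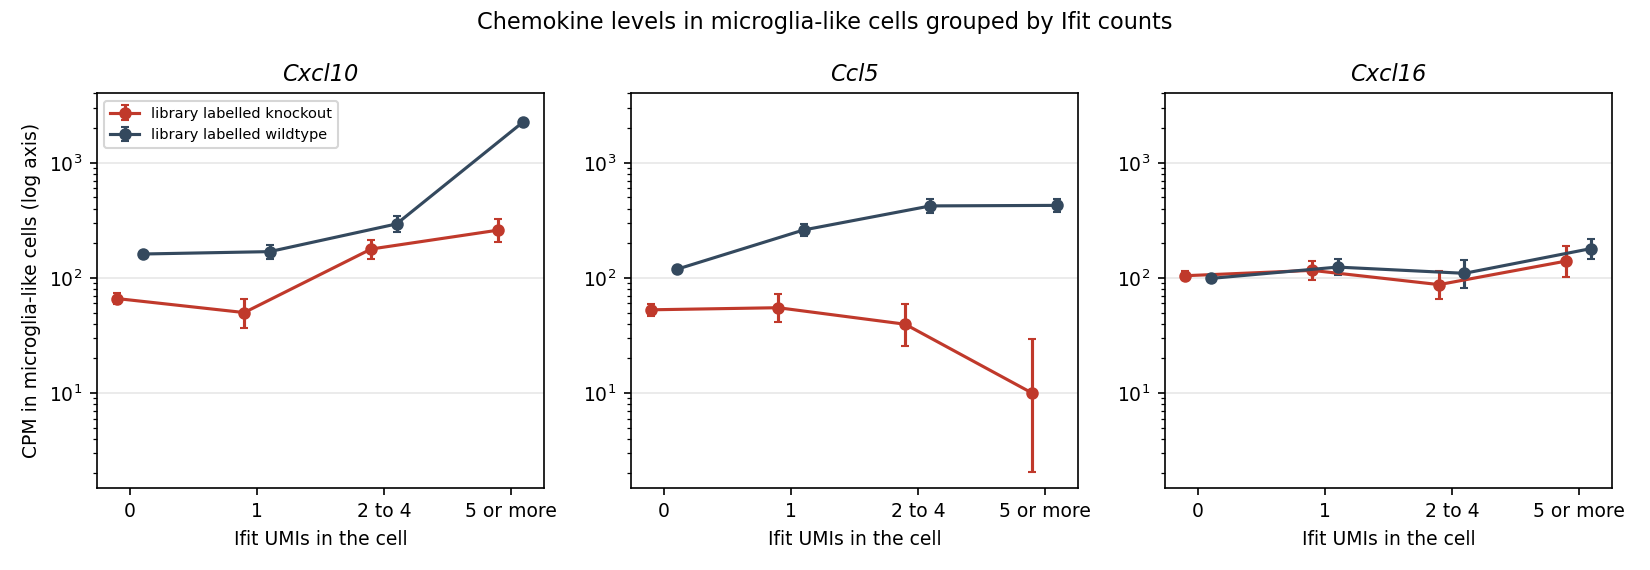
Level of Cxcl10, Ccl5 and Cxcl16 (CPM, log axis) in microglia-like cells grouped by the number of Ifit UMIs in the cell, for the library labelled knockout and that labelled wildtype, lineage-first rule; bars are exact 95% Poisson intervals. Cxcl10 reaches 260 CPM, with 55 of 78 counts in 1 cell, and 2274 CPM in cells with 5 or more Ifit UMIs, Ccl5 10.0 and 427 CPM, and Cxcl16 140 and 180 CPM.

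Read the other way, Ifit UMIs were found in 32.0% of Cxcl10-positive and 22.3% of other microglia-like cells of the library labelled knockout, and in 31.8% and 16.8% of those labelled wildtype. Cxcl10-positive cells were deeper, with medians of 4987 against 4215.5 UMIs and 4735 against 3824. After thinning, the shares were 20.9% (9 of 43 cells) against 10.0% in the library labelled knockout, with overlapping intervals, and 24.9% (48 of 193 cells) against 7.35% in that labelled wildtype, with intervals that do not overlap. For Ccl5 the thinned shares were 12.5% against 10.3% and 15.4% against 8.42%, and for Cxcl16 13.7% against 10.0% and 10.4% against 8.62%. Tnf, a cytokine gene of NF-kB signalling, was found in 23.3% of thinned Cxcl10-positive cells against 11.2% of others in the library labelled knockout, and in 25.4% against 13.2% in that labelled wildtype, where the intervals do not overlap. Tnf and Gbp2 were picked after values were seen, from several single partner genes counted in this way, and the others are not given. Gbp2, an interferon-inducible GTPase gene, is given before thinning only, so the greater depth of Cxcl10-positive cells is not levelled. It had a UMI in 0 of 103 Cxcl10-positive cells of the library labelled knockout, which allows up to 3.52% and so reaches the 2.65% of its other cells. In that labelled wildtype it had one in 28 of 337, or 8.31% (5.59 to 11.8), against 1.52% of other cells.

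Against all genes, a difference of at least 1.5-fold was rare in microglia-like cells. Of 6212 genes at 20 CPM or more in at least 1 library, 49 (0.789%) were at least 1.5-fold lower under the knockout label and 42 (0.676%) at least 1.5-fold higher. Of the 3 chemokine genes at that level, Cxcl10 and Ccl5 were among the lower, Cxcl16 was in neither group, and Cxcl9 was below the minimum. The median log2 ratio of all genes was -0.04. Counts of Cxcl10 and Ccl5 sit in few cells, and no share was taken among genes concentrated alike. Under the highest-share rule, 46 of 6215 (0.74%) were lower and 47 (0.756%) higher, and Cxcl10 alone of the 3 was called. At 50 CPM or more that rule gave 0.468% lower and 0.78% higher, and at 2-fold 0.0805% lower and 0.209% higher, with Cxcl10 again the one chemokine gene called, as lower. In border macrophage-like cells 1395 of 6519 genes (21.4%) were that much lower and 1488 (22.8%) higher, so the lower Cxcl10 there, with a ratio of 0.22 (0.112 to 0.402), stands among many such differences between 31 and 41 cells, and was 0.841 (0.272 to 2.45) without the top cell of each library.

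Interferon-induced genes were lower in part. Of 18 listed, 16 were measured in microglia-like cells, 6 of them at least 1.5-fold lower and 1 higher. Among all measured genes, 0.789% were lower and 0.676% higher. The median log2 ratio of the list was -0.35 (-0.23 under the highest-share rule, with 5 lower of 15). Oasl1, Rsad2, Ifit1 and Ifit3b reached 20 CPM only in the library labelled wildtype, where they are higher, so the number lower depends on that filter. Under the highest-share rule Oasl1, at 19.998 CPM there, was not measured. The lowest were Oasl1 (7.87 against 20.04 CPM, ratio 0.393) and Rsad2 (12.5 against 31.9 CPM, ratio 0.393), which encode antiviral proteins. Ifit2 stood at 28.3 against 70.1 CPM and Ifit3 at 80.4 against 125 CPM. The highest were Ifi27l2a, at 879 against 573 CPM and also the most abundant, and Oas1a, an antiviral synthetase gene, at 35.8 against 26.2 CPM. The 2 ends of the list thus lie on opposite sides of 1, and the Ifit genes used for the grouping above are members of it.

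Of 15 listed genes that interferon gamma induces, 8 were measured, none was 1.5-fold lower or higher, and the median log2 ratio was -0.07. Irf1, a transcription factor gene, had a ratio of 0.762 and Irgm1, a GTPase gene, 0.871. Cd274, the gene of the checkpoint ligand PD-L1, had 1.11 and Gbp7 1.08. Psmb8, an immunoproteasome gene and the most abundant of them, had 0.951. Of the 7 below the minimum level, Iigp1 had 19 against 94 counts, a ratio of 0.294 (0.169 to 0.485), Gbp2 had 0.687 (0.467 to 0.998) and Gbp5 0.682 (0.470 to 0.978). The rest of the 7 had ratios from 0.770 to 1.94, and each of their intervals includes 1. Interferons, their receptors and signalling genes had 12 of 14 measured, none past 1.5-fold, and a median of 0.09. The receptor genes Ifngr1 and Ifngr2 had ratios of 0.906 and 0.923, and Stat2 and Irf9, partners in the complex that binds interferon-stimulated response elements, 1.23 and 1.16. Ifnb1, the interferon beta gene, was below the minimum level, with 16 counts in 4 microglia-like cells, 1 of them Cxcl10-positive, against 63 counts in 27 cells, 12 of them Cxcl10-positive. Ifng had 0 and 1 counts in microglia-like cells.

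Chemokine and cytokine genes of NF-kB signalling had 9 of 12 measured, 1 at least 1.5-fold lower and none higher, with a median of -0.25. The lower gene was Ccl12, a monocyte-attracting chemokine gene, at 663 against 1141 CPM (ratio 0.582). Nfkbia, the gene of an NF-kB inhibitor, was at 750 against 1003 CPM (ratio 0.748). The chemokine genes Ccl3 and Ccl4 were at 1468 against 1464 CPM and at 2194 against 2604 CPM. Il1b had a ratio of 0.969. Cxcl2, below the minimum level here, had 0.933 (0.728 to 1.19), and 0.714 under the highest-share rule. These lists were drawn up with results of these libraries known, and their counts are not independent support.

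Among the classes, Cxcr3 and Cxcr6 had their highest levels in T/NK-like cells. Cxcr3, the receptor for CXCL9 and CXCL10, had 22 counts in 12 of 20 T/NK-like cells of the library labelled knockout (164 CPM) and 5 counts in 3 of 6 of that labelled wildtype (90.0 CPM), against 1.31 and 1.70 CPM in microglia-like cells. Cxcr6, the receptor for CXCL16, had 90 counts in 17 of 20 T/NK-like cells (672 CPM) and 11 counts in 5 of 6 (198 CPM), and 1 and 0 counts in microglia-like cells. Its intervals, 541 to 826 CPM and 98.8 to 354 CPM, do not overlap. Of the 6 T/NK-like cells labelled wildtype, however, 4 held 3 or more microglia markers, and the part of microglial RNA in the lower level was not tested. Cd8a was found in 17 of 20 and 5 of 6 of these cells, with no count of Cd4 or of the NK cell gene Ncr1. Cd8a and Ncr1 are among the markers that select this class and Cd4 is not. The presence of Cd8a is thus partly fixed by the selection, and these counts cannot decide how far the cells are of the CD8 kind. Ifng, which encodes the interferon that induces Cxcl9, had 40 counts in 12 of the 20 cells and 1 count in 1 of the 6.

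Ccr1, a receptor for CCL5, was at 59.6 CPM against 30.5 CPM in microglia-like cells, a ratio of 1.96 (1.68 to 2.28). It was highest in neutrophil-like cells, at 997 CPM (12 cells) and 521 CPM (18 cells), and stood at 269 and 292 CPM in border macrophage-like cells. Ccr3 had 3 and 6 counts in microglia-like cells and none in T/NK-like cells. Adam10 and Adam17, which release CXCL16, had ratios of 1.06 and 1.05.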

How the data were processed

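The members and all lists were chosen with earlier results of these data known. Per the file headers, the deposited tables hold whole-number UMI counts per gene and barcode, with no normalization by the authors. Cell Ranger 3.1 made them against mm10, going by the submitters' processing notes. Both libraries, 1 per group, were read with pandas 2.3.3 and scanpy 1.11.5. Barcodes with at least 500 UMIs, 250 genes and at most 15% mitochondrial counts were kept, which removed 24 of the library labelled knockout and 40 of that labelled wildtype. Scrublet called 0 and 3 doublets, so few that its calls are not relied on here, and doublets must be assumed to remain.

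A cell took the class with the highest share of markers detected, with at least 3 markers; 52 and 78 cells stayed unassigned. The lineage-first rule was added after those classes had been seen. Counts were summed per library and class and scaled to CPM. Levels carry Poisson, shares Clopper-Pearson and ratios exact binomial intervals, computed with scipy 1.17.1. The ratio step was checked on simulated Poisson counts, which cannot show how the intervals behave for counts that sit in few cells. A library at 0 was given a floor of 3 counts. Genes were compared at 20 CPM or more in 1 library, with 1.5-fold as the call. Likeness was the Pearson correlation of log counts per 10000 across microglia-like cells, over genes found in at least 1% of them. For Leiden clusters used as an alternative, 2000 variable genes, 30 components, 15 neighbours and resolution 1 gave 21 clusters.

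Genes were named by this rule: the 4 chemokines; in each list the most abundant gene and the 2 highest and 2 lowest ratios among those at the minimum level; genes with a likeness of 0.2 or more in both libraries; receptors that include Cxcr3, Ccr1, Ccr3 and Cxcr6; and Igfbpl1. Ifit1, Ifit2, Ifit3, Ifit3b, Ifnb1, Ifng, Tnf, Gbp2, Gbp5, Iigp1 and Cd8a were named after their values were seen. So were Cd4, Ncr1 and the phagocyte genes. One listed gene and the summary of its list are not reported here.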

Additional observations from a re-analysis of the deposited data

Results flagged for a closer look

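By the lineage-first rule Ccl5 differed in opposite directions between 2 classes of cell. Its log2 ratio of knockout to wildtype label was -1.74 in microglia-like cells and 1.01 in T/NK-like cells. This difference between classes was not tested, since each group is 1 library. In T/NK-like cells it rests on 20 and 6 cells, and by the highest-share rule, with 13 and 2 cells, the log2 ratio was -0.37.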

How the results depend on the processing

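Log2 ratios of knockout to wildtype label by the highest-share rule were recomputed under 12 listed settings and 2 added after seeing the data (lineage-first classes, and no cells with 3 or more T/NK markers). In microglia-like cells Cxcl10 was -1.82 and stayed at least 1.5-fold lower in all 14, at -1.58 with equal weight per cell and -2.10 without the top 1% of cells. Ccl5, at -0.23, was below 0 in all 14 and at least 1.5-fold lower in 6. It was -1.75 with cells of 2 or more other-class markers left out, -1.29 by cluster, -0.64 with equal weight per cell, -0.50 without the top cell of each library, -1.79 without the top 1% of cells, -0.42 after thinning, -1.74 lineage-first and -1.75 without T/NK-marker cells. Cxcl9 ranged from -1.46 to -0.66 over the 12 settings that gave a value, and Cxcl16 from -0.06 to 0.08. Over all kept cells Cxcl10 was -1.77, and -1.53 with equal weight, -2.07 without the top 1% of cells and -1.60 thinned. Ccl5 was 0.85 there, 0.70 with equal weight and 0.76 without the top cell, and turned to -0.66 without the top 1% of cells, 18 and 27 cells. Genes at least 1.5-fold lower and higher numbered 46 and 47; at 50 CPM they were 15 and 25, and at 2-fold 5 and 13. Of 50 alternatives for detection, co-detection and list medians, 19 moved, 12 of them by thinning and 6 by asking for 2 Ifit UMIs. Ratios in border macrophage-like cells had no value under the highest-share rule, which leaves 3 and 2 such cells. No paired analysis was possible because each group has 1 library and its replicate number is only a name. Cxcl9, with 6 and 20 counts, is limited by depth. Leaving the top cell out of each group of cells, added after seeing the data, moved several Ifit group levels, as given with them.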
